A study of Mus musculus with 12 samples.

Results

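Fc gamma receptors are the cell-surface proteins through which microglia bind immunoglobulin G. The receptors were followed here as 5 genes, taken by gene symbol from the 55401 genes counted in each library. Fcgr1, Fcgr3 and Fcgr4 encode the activating receptors, Fcgr2b the inhibitory receptor, and Fcer1g the common gamma chain that the activating receptors signal through. All 5 were counted in every library and passed the filter on low counts.

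Microglia were sorted from mouse brain as CD45int CD11b+ cells, and their RNA was sequenced in 12 libraries, 3 for each of 4 groups. WT mice carried 2 loxP-flanked Hdac3 alleles and no Cre (Cx3cr1 wt/wt Hdac3 loxp/loxp). The miKO mice carried the same floxed alleles and 1 Cx3cr1 CreER allele (Cx3cr1 CreER/wt Hdac3 loxp/loxp), which places a tamoxifen-dependent Cre recombinase under the promoter of the fractalkine receptor gene, active in microglia and in other mononuclear phagocytes. Mice of both genotypes had either a sham operation (WT-Sham, miKO-Sham) or 60 min of transient focal cerebral ischemia by occlusion of the left middle cerebral artery (WT-tFCI, miKO-tFCI), with cells isolated on day 3 after tFCI.

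The mice were male, and each library held cells pooled from 3 to 4 hemispheres. To delete Hdac3, tamoxifen was injected on 5 days at 6 to 8 weeks of age, with surgery at least 1 month later. The sources used here do not say whether WT mice received it as well. All miKO mice were heterozygous for Cx3cr1, so loss of Hdac3 and loss of 1 Cx3cr1 allele cannot be told apart in the comparisons of genotype. Replicate 1 of each group was sequenced in batch 1 and replicates 2 and 3 in batch 2. Before staining, cells were incubated with an antibody against CD16/32, the proteins of Fcgr3 and Fcgr2b, in all groups. A bulk library cannot tell fewer cells that express a gene from less RNA per cell.

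The libraries held 7697864 to 9452222 counts on genes. Hdac3 itself was at 35.0, 44.0 and 46.4 CPM (counts scaled to a common library total) in WT-Sham and at 25.8, 25.0 and 20.9 CPM in miKO-Sham. After ischemia it was at 54.0, 52.9 and 43.9 CPM in WT-tFCI and at 36.0, 27.1 and 28.9 CPM in miKO-tFCI. The targeted gene was thus lower in every miKO library than in every WT library of the same surgery. Markers of microglia, such as P2ry12, Tmem119 and Sall1, were present in all libraries, with a summed level between 5385 and 22716 CPM. Replicates 1 and 2 of miKO-Sham, labelled as different batches, were closer to each other than any other pair of replicates (chi-square per degree of freedom 2.82, against 3.65 to 76.6). They differed by more than sampling noise and were kept as separate libraries, but their deposited files carry the same library code, and they may be 1 library sequenced in both batches. The miKO-Sham group may therefore hold 2 independent libraries and not 3, and p-values that rest on it may be too small. Results that rest on them are also given without one of them or with both summed.

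Fc gamma receptors link antibodies to phagocytes. When an antibody-coated particle gathers activating receptors, Src-family kinases phosphorylate the immunoreceptor tyrosine-based activation motif (ITAM) of the common gamma chain, the kinase Syk docks there, and phagocytosis, oxidative burst and cytokine release follow. Fcgr2b, which binds the same antibodies, carries its own inhibitory motif (ITIM) and recruits the lipid phosphatase SHIP-1, the product of Inpp5d, so the balance of activating and inhibitory receptors sets the threshold of the response. In mouse brain these genes are expressed mainly by microglia and macrophages, and Fcgr4 also by blood monocytes and neutrophils. Fcgr2b is also a receptor of B cells.

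The coding sequences hold the difference between the activating chain and the inhibitory receptor, and the pair of motifs is shown for that reason. The Fcer1g stretch lies in exons 4 and 5 of 5 on the minus strand, at chr1:171230067-171230072 and chr1:171229889-171229927 (GRCm38), and its capitals mark the codons of the ITAM tyrosines. The Fcgr2b stretch lies in exon 8 of 8 on the minus strand, at chr1:170961071-170961088, and its capitals mark the codon of the ITIM tyrosine.
Fcer1g ITAM: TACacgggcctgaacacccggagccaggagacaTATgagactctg
Fcgr2b ITIM: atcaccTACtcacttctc
A search of the coding sequences for the spacing of ITAM tyrosines found 1 match in Fcer1g and 0 in Fcgr1, Fcgr3, Fcgr4 and Fcgr2b.

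Fcgr2b and Fcgr3 are near relatives, and reads of one could be counted for the other where their exons are alike. Over 785 aligned coding bases 684 were the same (87.1%), whereas the other pairs of receptors shared 64.1% to 68.7%. The longest identical coding stretch is shown because a read short enough to lie wholly inside it could not be assigned. It has 129 bases and covers part of exons 3 and 4 in both genes, at chr1:170967980-170968081 and chr1:170966674-170966700 in Fcgr2b and at chr1:171057691-171057792 and chr1:171054167-171054193 in Fcgr3, all on the minus strand.
Fcgr2b and Fcgr3 shared stretch: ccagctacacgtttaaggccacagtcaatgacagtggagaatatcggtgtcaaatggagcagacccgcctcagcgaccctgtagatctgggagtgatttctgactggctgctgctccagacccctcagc
Of all windows of 75 bases, 7.38% of those in Fcgr3 and 2.71% of those in Fcgr2b occurred in the other gene, and no window of 150 bases, the read length, was shared between any of the 5 genes. Fcgr2b also shared 107 of its 3395 windows of 150 bases with Cplx2, Gm47409 and Rab3c, and 155 of its exon bases lie opposite the antisense gene Gm38204. Whether the counting used strand is not given in the sources used here.

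Set against exon length, the chain and the Fcgr3 receptor were among the most abundant transcripts of these cells. In WT-Sham Fcer1g stood at 1213 CPM per kb of exon and Fcgr3 at 954 CPM per kb, ranks 31 and 42 of 16436 genes, and the libraries of the 2 genes overlapped on this scale. Fcgr1 followed with 126 CPM per kb, Fcgr2b with 47.2 and Fcgr4 with 11.3 CPM per kb. The order of the first 3 genes was the same in each group. Fcgr4 moved from rank 4022 in WT-Sham to 896 in miKO-Sham, 644 in WT-tFCI and 575 in miKO-tFCI, and its mean passed that of Fcgr2b in these 3 groups. In WT-tFCI that last order depended on the length used, since Fcgr2b has 5790 exon bases in all and its principal transcript has 3544.

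**Figure D1:**
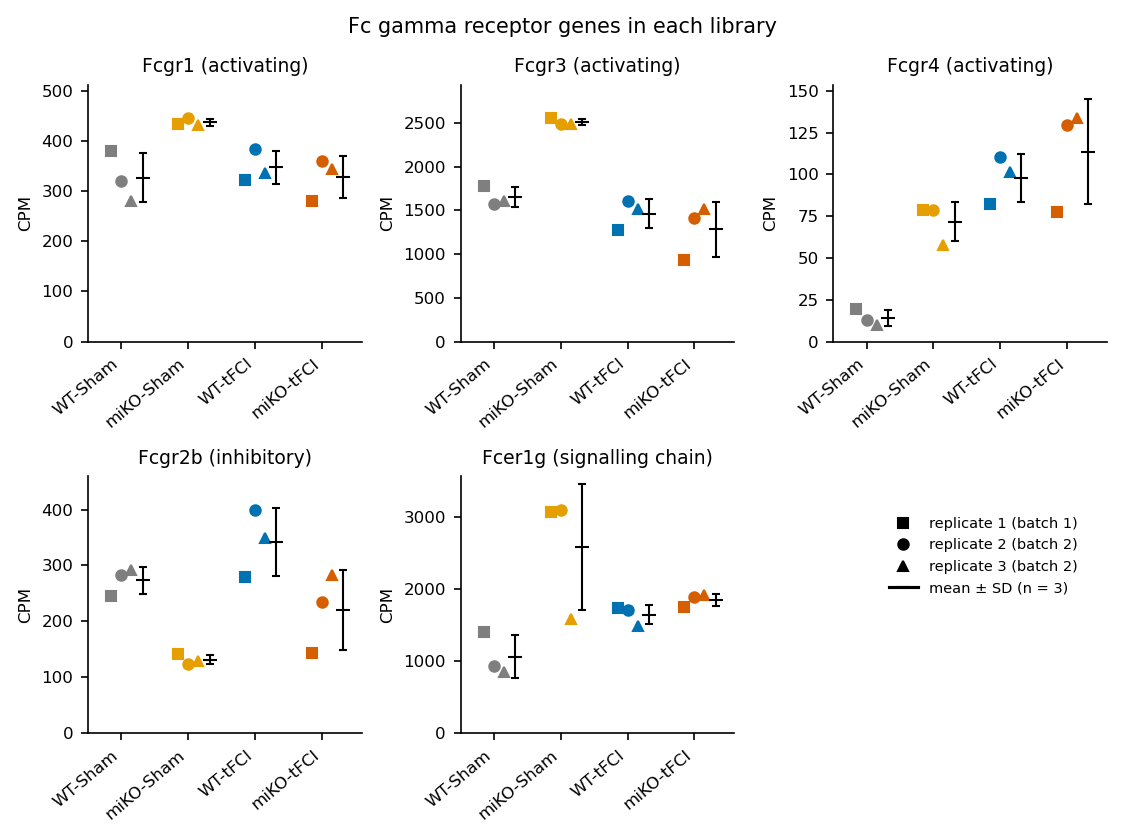
Level of each of the 5 genes (y axis, CPM, from 0) in the 12 libraries by group (x axis), with 1 point for each library, its shape marking the replicate, and a bar for the mean with its SD (n = 3). Fcgr4 is lowest in WT-Sham, where its libraries lie between 10.2 and 19.5 CPM, while Fcgr2b has its lowest mean and Fcer1g its highest mean in miKO-Sham.

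The first comparison asked what deletion of Hdac3 changed in microglia of sham-operated mice, before any ischemia. The activating receptors Fcgr4 and Fcgr3 and the chain were higher in miKO-Sham and the inhibitory receptor was lower, while the activating receptor Fcgr1 did not pass the test. Of the 5 genes 3 were called higher (Fcgr4, Fcer1g and Fcgr3), against 8.58% of all genes tested, and 1 was called lower (Fcgr2b), against 6.80% of all genes. A gene was called where the edgeR adjusted p was below 0.05 and the log2 fold change beyond 0.58 in size. The median log2 fold change of the 5 genes was 0.60, beside 0.04 over all genes.

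Fcgr4, an activating receptor for IgG2a and IgG2b, was measured at 19.5, 12.997 and 10.2 CPM in WT-Sham and at 78.6, 78.5 and 58.02 CPM in miKO-Sham. The groups were far apart, since the lowest miKO-Sham library lay well above the highest WT-Sham library. The change was 5.05-fold (log2 2.34 ± 0.25 SE, n = 3 per group, edgeR adjusted p = 1.46e-05), with log2 differences of 2.00 in batch 1 and 2.53 in batch 2. It was called under each of 21 settings, with log2 values from 2.10 to 2.74, the settings without miKO-Sham replicate 1 or 2 included.

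Fcer1g, the chain itself, was at 1399.97, 929 and 851 CPM in WT-Sham, and at 3074, 3107 and 1581 CPM in miKO-Sham. Each miKO-Sham library was higher than each WT-Sham library, but miKO-Sham replicate 3 was close to WT-Sham replicate 1. The gene rose 2.46-fold (log2 1.30 ± 0.22 SE, edgeR adjusted p = 0.00075). Its value stayed between 1.06 and 1.54 on the log2 scale and was called in each of the 21 settings.

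Fcgr3, the low-affinity activating receptor CD16, was at 1784, 1573 and 1612 CPM in WT-Sham and at 2556, 2486 and 2490 CPM in miKO-Sham. There was no overlap between the libraries, and the change was smaller than for Fcgr4 or Fcer1g, 1.51-fold (log2 0.60 ± 0.17 SE, edgeR adjusted p = 0.021). This call sat at the threshold of fold change. It was lost in 5 of the 21 settings, among them without miKO-Sham replicate 1 (log2 0.50, edgeR adjusted p = 0.102), with miKO-Sham replicates 1 and 2 summed (0.52, 0.0814), and without WT-Sham replicate 2 (0.51, 0.125) or replicate 3 (0.53, 0.111).

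Fcgr1, the high-affinity receptor CD64, had 379, 320 and 281 CPM in WT-Sham and 434, 446 and 431 CPM in miKO-Sham. The groups did not overlap, yet the log2 difference of 0.42 ± 0.15 SE did not pass the test (edgeR adjusted p = 0.063). Without WT-Sham replicate 1, the highest of its group, the difference was 0.59 with an edgeR adjusted p of 0.016, past both thresholds.

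Fcgr2b, the inhibitory receptor CD32B, moved the other way. It was at 246, 283 and 291 CPM in WT-Sham and at 141, 124 and 129 CPM in miKO-Sham, with no overlap between the groups. The level fell 2.05-fold (log2 -1.04 ± 0.18 SE, edgeR adjusted p = 0.000768), by -0.80 in batch 1 and -1.18 in batch 2 on the log2 scale, and the call held in all 21 settings. The members thus differed in direction within the same libraries, Fcgr2b being lower where Fcgr3, Fcgr4 and Fcer1g were higher.

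Of the 6 monocyte markers (Ccr2, Ly6c2, Plac8, Chil3, Vcan and Fn1) 0 were called by edgeR and 1 by DESeq2, and 3 (Chil3, Fn1 and Ly6c2) were higher at an unadjusted p below 0.05. Their summed level was 10.7 to 86.4 CPM in WT-Sham and 50.5 to 106 CPM in miKO-Sham. The 6 neutrophil markers (S100a8, S100a9, Retnlg, Ly6g, Mmp8 and Camp) summed to 31.0 to 611 CPM in WT-Sham, where replicate 1 was highest, and to 174 to 236 CPM in miKO-Sham, and 0 of the 5 tested were called by edgeR or DESeq2, or were at an unadjusted p below 0.05. B cell markers, which include Cd79b and Ighm, summed to 420 to 512 CPM and 329 to 429.98 CPM, with Cd79b called lower, while 3 of 7 microglia markers were called lower. The part of these markers in the changes of Fcgr2b and of the other members was not tested.

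The second comparison asked what ischemia changed in WT microglia on day 3. In WT-tFCI against WT-Sham 2 of the 5 genes were called higher (Fcgr4 and Fcer1g), against 20.9% of all genes, and 0 were called lower, against 11.7% of all genes. DESeq2 also called 0 lower, and 0 were lower at an unadjusted edgeR p below 0.05. The median of the 5 log2 fold changes was 0.32, beside 0.02 over all genes. This comparison and the former one share the WT-Sham libraries.

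Fcgr4 changed the most of the 5. From 19.5, 12.997 and 10.2 CPM in WT-Sham it reached 82.2, 110 and 101 CPM in WT-tFCI, with no overlap. It rose 6.88-fold (log2 2.78 ± 0.26 SE, edgeR adjusted p = 1.3e-06) and was called in all 21 settings, with log2 values between 2.51 and 3.20.

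Fcer1g had 1739, 1711 and 1489 CPM in WT-tFCI, above the 851 to 1399.97 CPM of WT-Sham, and the groups lay side by side without overlapping. The rise was 1.58-fold (log2 0.66 ± 0.22 SE, edgeR adjusted p = 0.0274). It was called in 16 of 21 settings and lost without a batch term (log2 0.64, edgeR adjusted p = 0.0676) and without WT-Sham replicate 2 (0.57, 0.109) or 3 (0.52, 0.137) or WT-tFCI replicate 2 (0.53, 0.127) or 3 (0.64, 0.0715).

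The other receptors were not called. Fcgr1 was at 322, 384 and 336 CPM in WT-tFCI, a log2 difference from WT-Sham of 0.09 (95% interval -0.20 to 0.37), and its sign turned without WT-Sham replicate 3 (-0.070) or WT-tFCI replicate 2. Fcgr3, at 1276, 1604 and 1511 CPM, differed by -0.19 (-0.51 to 0.13). Fcgr2b, at 279, 400.1 and 349 CPM, differed by 0.32 (-0.03 to 0.66). For these 3 genes the libraries of the groups overlapped or lay close together, and the intervals leave room for modest changes either way.

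With ischemia the markers of other cells moved as well. Monocyte markers summed to 356 to 628 CPM in WT-tFCI, above all WT-Sham libraries, and Chil3, Vcan and Fn1 were called higher. Neutrophil markers summed to 119 to 139.5 CPM and 0 of 5 were called by edgeR or DESeq2 or had an unadjusted p below 0.05, and 5 of 7 microglia markers were called lower. Blood monocytes express Fcgr4 as well, and the part of such cells in the rise of Fcgr4 was not tested.

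The third comparison asked what deletion of Hdac3 changed after ischemia. Here Fcgr2b alone was called, lower in miKO-tFCI than in WT-tFCI, which is 1 of 5 genes against 4.71% of all genes, and 0 of 5 were called higher, against 4.08%, also with DESeq2 and at an unadjusted edgeR p below 0.05. The median of the 5 log2 fold changes was -0.08, beside 0.04 over all genes. Fcgr2b was at 279, 400.1 and 349 CPM in WT-tFCI and at 142, 234 and 283 CPM in miKO-tFCI. The groups met at their edge, since miKO-tFCI replicate 3 exceeded WT-tFCI replicate 1.

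Fcgr2b fell 1.58-fold (log2 -0.66 ± 0.18 SE, edgeR adjusted p = 0.0278), by -0.97 in batch 1 and -0.54 in batch 2. The call held in 15 of 21 settings. It was lost without the batch term (-0.64, edgeR adjusted p = 0.125), in batch 2 only (-0.58, 0.0227, short of the fold threshold), and without WT-tFCI replicate 2 (-0.59, 0.129) or 3 (-0.70, 0.084) or miKO-tFCI replicate 1 (-0.48, 0.0964) or 2 (-0.66, 0.0696).

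The activating members were close together in the 2 ischemic groups. Fcgr4 was at 77.7, 130 and 134 CPM in miKO-tFCI, a log2 difference of 0.21 (95% interval -0.24 to 0.66) from WT-tFCI. Fcgr1, at 281, 360 and 344 CPM, differed by -0.08 and Fcgr3, at 928, 1410 and 1515 CPM, by -0.20, and in both genes miKO-tFCI replicate 1 was the lowest library. Fcer1g was at 1756, 1885 and 1914 CPM, above all 3 WT-tFCI libraries, with a log2 difference of 0.18 (edgeR adjusted p = 0.648).

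Neutrophil markers summed to 534 to 679.9 CPM in miKO-tFCI against 119 to 139.5 CPM in WT-tFCI, and S100a8, S100a9, Retnlg and Mmp8 were called higher. The sums of monocyte markers overlapped, 417 to 884 CPM against 356 to 628 CPM, with Ccr2 and Chil3 called higher. Fn1, the largest part of the WT-tFCI sum, went the other way, with means of 206 CPM in miKO-tFCI and 369 CPM in WT-tFCI. It was not called. All other monocyte markers of the list had higher means in miKO-tFCI, such as Chil3 (285 against 70.0 CPM) and Ccr2 (38.9 against 9.31 CPM). B cell markers were lower, 151 to 155 CPM against 266 to 330 CPM, and Cd79b and Ighm were called lower. Border-associated macrophage markers summed to 223 to 669 CPM against 107 to 185 CPM, with F13a1 and Cd163 called higher, and 4 of 7 microglia markers were called lower. B cells express Fcgr2b, and the part of these cells in its lower level was not tested. In miKO-tFCI replicate 1, where Fcgr2b was lowest, microglia markers summed to 5385 CPM, against 8260 and 10859 CPM in replicates 2 and 3. Its dendritic cell markers summed to 92.6 CPM, against 11.8 and 11.7 CPM, and its monocyte sum was the highest of the group. Its neutrophil and border-associated macrophage sums were the lowest of the group. The part of this library's make-up in the fall of Fcgr2b was not tested.

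The fourth comparison asked what ischemia changed in miKO microglia. Of the 5 genes 2 were called higher in miKO-tFCI than in miKO-Sham (Fcgr2b and Fcgr4), against 21.9% of all genes, and 1 was called lower (Fcgr3), against 13.9%. Their median log2 fold change was -0.41, beside 0.03 over all genes. This comparison shares its miKO-Sham libraries with the first and its miKO-tFCI libraries with the third.

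Fcgr3 went from 2556, 2486 and 2490 CPM in miKO-Sham to 928, 1410 and 1515 CPM in miKO-tFCI, with no overlap. It fell 1.98-fold (log2 -0.98 ± 0.17 SE, edgeR adjusted p = 0.000323), by -1.46 in batch 1 and -0.77 in batch 2, and was called in all 21 settings. In WT mice the same gene had differed by -0.19 between the surgeries. The interaction of genotype and surgery, which tests that difference, was -0.79 ± 0.23 SE for Fcgr3 and did not pass (edgeR adjusted p = 0.0804).

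Fcgr2b rose 1.62-fold from 141, 124 and 129 CPM to 142, 234 and 283 CPM (log2 0.69 ± 0.18 SE, edgeR adjusted p = 0.00589). The batches differed, with 0.01 in batch 1 and 1.02 in batch 2, so that miKO-tFCI replicate 1 stood only just above miKO-Sham replicate 1. The call was lost without miKO-tFCI replicate 3 (0.50, edgeR adjusted p = 0.0431, short of the fold threshold) and held in the other 20 settings.

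Fcgr4 rose 1.58-fold from 78.6, 78.5 and 58.02 CPM to 77.7, 130 and 134 CPM (log2 0.66 ± 0.23 SE, edgeR adjusted p = 0.0348). The groups overlapped, since miKO-tFCI replicate 1 was not above miKO-Sham replicates 1 and 2, and the log2 difference was -0.02 in batch 1 and 0.96 in batch 2. This call held in 13 of 21 settings only. Without miKO-Sham replicate 3 it was 0.49 (edgeR adjusted p = 0.145), without miKO-tFCI replicate 2 0.56 (0.106) and without miKO-tFCI replicate 3 0.50 (0.139).

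Fcgr1 passed the adjusted p but not the fold threshold (log2 -0.41, edgeR adjusted p = 0.0337), with 434, 446 and 431 CPM in miKO-Sham and 281, 360 and 344 CPM in miKO-tFCI. Fcer1g differed by -0.46 (edgeR adjusted p = 0.103), and without miKO-Sham replicate 3, the lowest of its group, by -0.71 (0.00771), past both thresholds. Monocyte markers rose with this comparison, with Ccr2, Chil3, Vcan and Fn1 called higher, as were the neutrophil genes S100a8, Retnlg and Mmp8, the border-associated macrophage genes Lyve1, F13a1, Cd163 and Pf4 and the dendritic cell genes Flt3 and Zbtb46, and all 7 microglia markers were called lower, to a summed 5385 to 10859 CPM from 13398 to 17697 CPM. The part of these markers in the members' changes was not tested.

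**Figure D2:**
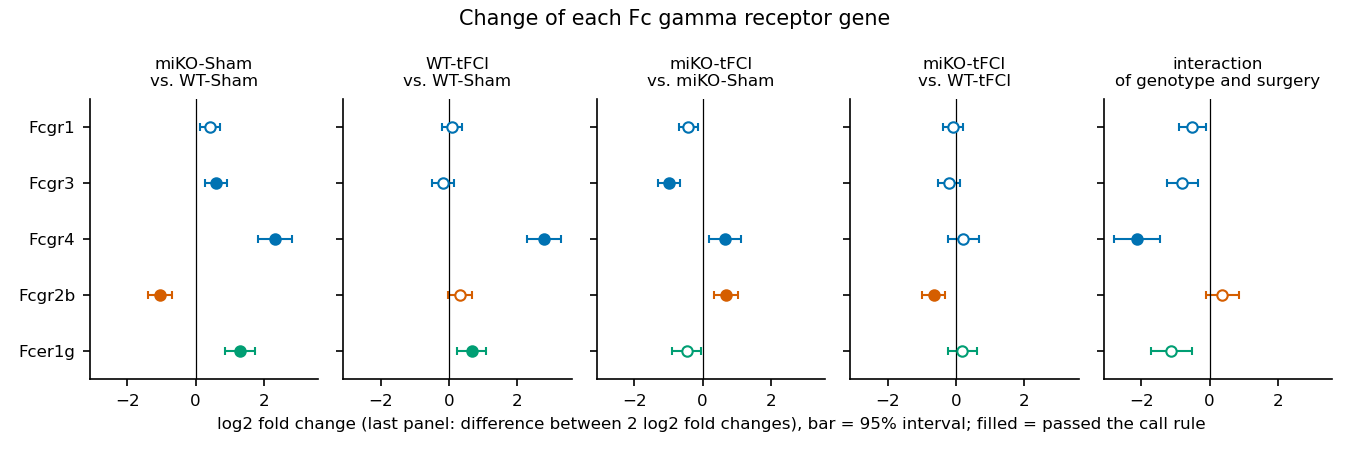
Log2 fold change (x axis) of the 5 genes (y axis) in the 4 comparisons and in the interaction of genotype and surgery (panels), with bars for the 95% interval and filled symbols for values that passed the thresholds. Fcgr4 lies at 2.78 and 2.34 in WT-tFCI against WT-Sham and in miKO-Sham against WT-Sham, and Fcgr2b is below 0 in both comparisons of genotype.

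Whether the effect of ischemia differed between the genotypes was tested by the interaction term. Fcgr4 was called, which is 1 of 5 genes with a negative interaction against 2.57% of all genes, and 0 of 5 had a positive one, against 1.25%, also with DESeq2 and at an unadjusted edgeR p below 0.05. Its value was -2.13 ± 0.34 SE on the log2 scale (edgeR adjusted p = 0.00283), -2.08 in batch 1 and -2.21 in batch 2. The rise of Fcgr4 with ischemia was 2.78 in WT and 0.66 in miKO mice. Libraries of miKO-Sham lay at 58.02 to 78.6 CPM, below WT-tFCI at 82.2 to 110 CPM and overlapping miKO-tFCI at 77.7 to 134 CPM. The call held in each of the 20 settings that allowed the test, with values between -2.56 and -1.89.

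The interaction of Fcer1g was -1.12 ± 0.31 SE (edgeR adjusted p = 0.060) and that of Fcgr3 -0.79. Both passed under some settings: with DESeq2 the values were -1.10 (DESeq2 adjusted p = 0.00644) for Fcer1g and -0.78 (0.00708) for Fcgr3. Fcgr1 had -0.50 (edgeR adjusted p = 0.218) and Fcgr2b 0.38 (0.478). For Fcgr2b the fall with genotype was -1.04 after sham surgery and -0.66 after ischemia, and the difference between these did not pass the test.

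The balance of activating and inhibitory receptors was taken in each library as the ratio of an activating receptor to Fcgr2b, per kb of exon, which does not depend on the scaling of the libraries. Fcgr1 to Fcgr2b ran from 2.16 to 3.44 in WT-Sham, from 6.89 to 8.01 in miKO-Sham, from 2.14 to 2.58 in WT-tFCI and from 2.71 to 4.41 in miKO-tFCI. Fcgr3 to Fcgr2b ran from 18.5 to 24.2, from 60.5 to 66.6, from 13.4 to 15.3 and from 17.8 to 21.7 in the same order. For both receptors the miKO-Sham libraries stood apart from all others.

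The Fcgr4 ratio was lowest in WT-Sham, at 0.162 to 0.366, and was 2.07 to 2.91 in miKO-Sham, 1.27 to 1.36 in WT-tFCI and 2.18 to 2.55 in miKO-tFCI. The miKO groups overlapped each other and lay above both WT groups. With the principal transcript's length for each gene the Fcgr4 ratio was 0.778 to 0.833 in WT-tFCI, below 1, so no statement on which of the 2 receptors is the more abundant in that group can be made independently of length. The differences between groups do not change with length.

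Across both surgeries, with libraries exchanged only within a surgery and a batch, the ratio to Fcgr2b was higher in miKO than in WT mice by 1.04 on the log2 scale for Fcgr1, 1.06 for Fcgr3 and 2.14 for Fcgr4. Each difference had an exact two-sided permutation p of 0.0139, the smallest that the permitted arrangements allow, and a Benjamini-Hochberg adjusted value of 0.0167 over the 6 tests of this kind. All ratios have Fcgr2b as denominator, so these tests are not independent of one another or of its lower level in miKO mice. The ratio was lower after ischemia than after sham surgery by -0.66 for Fcgr1 and -1.09 for Fcgr3, with the same exact p of 0.0139 and adjusted value of 0.0167. For Fcgr4 it was 1.23 higher after ischemia, with an exact permutation p of 0.111. Without miKO-Sham replicate 1 the genotype differences were 1.07, 1.08 and 2.13, and without replicate 2 they were 1.01, 1.04 and 2.09. The exact permutation p was 0.0139 in each, again the smallest that the 72 arrangements left allow.

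Both surgeries entered these differences, with unequal parts. The genotype difference in the Fcgr1 ratio was 1.48 after sham surgery and 0.60 after ischemia, and for Fcgr3 it was 1.65 and 0.47, all on the log2 scale. For Fcgr4 it was 3.42 and 0.87. In each of these 6 cases the miKO libraries lay above the WT libraries of the same surgery, and the difference between the surgeries was not tested for the ratios. Between the ischemic groups Fcgr2b itself was called lower (log2 -0.66), while Fcgr1, Fcgr3 and Fcgr4 were not called. The surgery differences were as unequal between the genotypes. For Fcgr1 the ratio differed by -0.22 in WT mice, where the groups overlapped, and by -1.11 in miKO mice, and for Fcgr3 by -0.50 and -1.68, without overlap in either. For Fcgr4 the ratio was 2.51 higher after ischemia in WT mice, without overlap, and differed by -0.048 in miKO mice, where the groups overlapped.

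**Figure D3:**
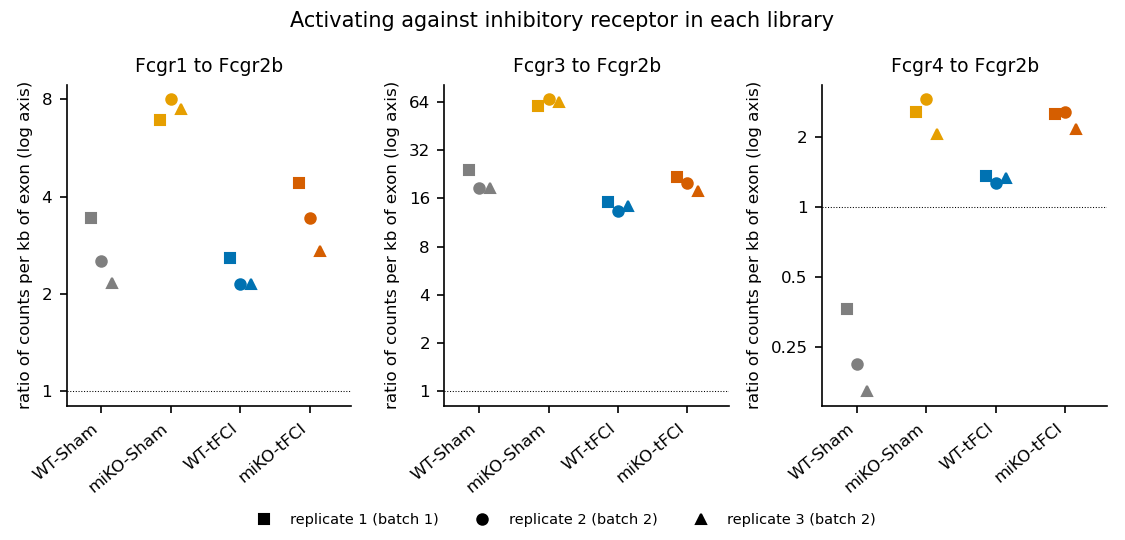
Ratio of Fcgr1, Fcgr3 and Fcgr4 (panels) to Fcgr2b per kb of exon in each library (y axis, log scale) by group (x axis), with 1 point for each library. The miKO-Sham points lie highest for Fcgr1 and Fcgr3, and for Fcgr4 the WT-Sham points, at 0.162 to 0.366, lie below all others.

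Fcer1g serves other receptors than those for IgG, and these were read next. The list held 9 receptors known to pair with the chain, of which 4 were expressed well enough to be tested: Clec4e (Mincle), which senses mycobacterial glycolipid and dead cells, Clec4d (MCL), its partner, Clec4n (Dectin-2), a receptor of fungal mannans, and the immunoglobulin-like receptor Lilra5. All 4 were called higher in miKO-Sham than in WT-Sham, against 8.58% of all genes, and all 4 in miKO-tFCI than in WT-tFCI, against 4.08%. With miKO-Sham replicates 1 and 2 summed 5 were tested, and 4 were called higher in either comparison. The median log2 fold change of the 4 was 3.21 and 2.10, beside 0.04 over all genes in both comparisons. In WT-Sham Clec4d had no count and Clec4e at most 0.962 CPM, so both passed the low-count filter through other groups. That filter favoured a higher call for them against WT-Sham, and the count of 4 and its median include them. Clec4n and Lilra5 had at least 10 counts in every library, and with that filter both were called in each comparison of genotype.

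Lilra5 was at 19.7, 27.8 and 28.2 CPM in WT-Sham and at 314, 299 and 216 CPM in miKO-Sham (log2 3.49, edgeR adjusted p = 4.7e-07). After ischemia it was at 14.5, 21.2 and 16.1 CPM in WT and at 44.9, 78.3 and 109 CPM in miKO mice (log2 2.13, edgeR adjusted p = 0.000115). Within miKO mice it fell with ischemia, by -1.91 on the log2 scale, and the interaction of -1.37 passed the test (edgeR adjusted p = 0.0378). The list had 2 interaction calls, Lilra5 and Clec4d, and 1 with miKO-Sham replicates 1 and 2 summed. After either surgery the genotypes did not overlap.

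Clec4e was nearly absent from WT-Sham, with 0.962, 0 and 0.103 CPM, and had 3.47, 2.36 and 1.41 CPM in miKO-Sham. After ischemia WT libraries had 15.1, 4.96 and 4.02 CPM and miKO libraries 50.4, 15.2 and 19.7 CPM. Both ischemia and genotype moved it, with log2 differences of 4.51 for ischemia in WT and 1.87 for genotype after ischemia (edgeR adjusted p = 4.05e-06 and 0.00156). Clec4d had no count in the 3 WT-Sham libraries, for which 3 counts over the group would be 0.111 CPM, and was at 2.92, 4.30 and 1.79 CPM in miKO-Sham and 14.7, 4.73 and 6.82 CPM in WT-tFCI. It was thus at least 26.7-fold higher in miKO-Sham and at least 78.4-fold higher in WT-tFCI. After ischemia with deletion of Hdac3 it reached 43.2, 35.2 and 26.3 CPM.

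Clec4n was at 4.69, 3.92 and 2.36 CPM in WT-Sham and 12.8, 9.99 and 19.5 CPM in miKO-Sham. After ischemia it was at 7.66, 4.96 and 5.48 CPM in WT and at 33.9, 39.8 and 35.4 CPM in miKO mice. The genotypes were apart after either surgery (log2 1.96 and 2.60, edgeR adjusted p = 0.000254 and 5.08e-05). Clec4d and Clec4e are also expressed by neutrophils and monocytes. As given above, the neutrophil sums of the ischemic groups lay apart, higher in miKO-tFCI. The monocyte sums overlapped, with Fn1 lower and the other monocyte markers higher in mean in miKO-tFCI. The part of such cells was not tested.

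**Figure D4:**
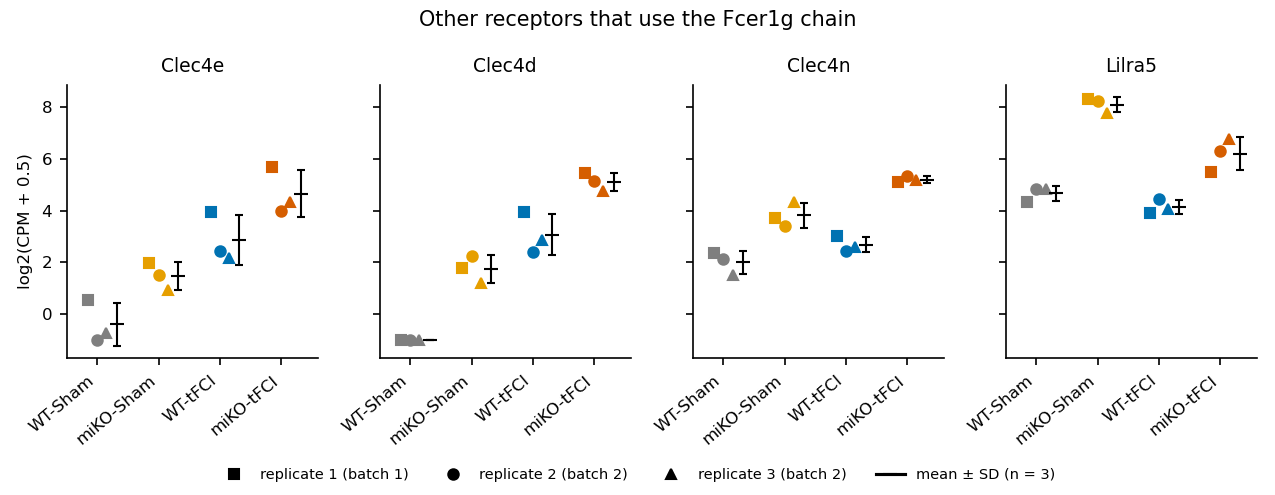
Level of Clec4e, Clec4d, Clec4n and Lilra5 (panels), which pair with the chain, as log2 of CPM plus 0.5 (y axis) in the 12 libraries by group (x axis), with the mean and SD of each group (n = 3). Clec4d lies at the bottom of the scale in WT-Sham, where it had no count, and Lilra5 is highest in miKO-Sham, at 216 to 314 CPM.

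Behind the receptors, the kinases did not move as one. The counts in the lists that follow stand against the shares of all genes called higher and lower, 8.58% and 6.80% in miKO-Sham against WT-Sham, 20.9% and 11.7% for ischemia in WT, 4.08% and 4.71% between the ischemic groups and 21.9% and 13.9% for ischemia in miKO mice. Of 9 tested, 2 were called higher and 1 lower in miKO-Sham against WT-Sham, namely Fgr (log2 1.53) and Lyn (0.77), Src-family kinases of myeloid cells, against Fyn (-1.43). With ischemia in WT mice Fgr (2.75) and Fyn (0.75) were called higher and Syk (-0.58) and Src (-0.64) lower, and the count of kinases called was 1 in place of 4 without WT-Sham replicate 1. The 2 of 9 called higher there are near the share of all genes. In miKO mice ischemia raised Fyn (2.42) and Fgr (1.92) and lowered 5 kinases, among them Src (-0.93), Tec (-0.91), Syk (-0.69) and Lyn (-0.60). Between the ischemic groups Fgr alone was called, higher in miKO-tFCI (0.69). Syk, which docks on the chain, did not pass in either comparison of genotype (0.32, edgeR adjusted p = 0.113, and 0.22, 0.328). Without miKO-Sham replicate 1 the kinases called in miKO-Sham against WT-Sham were 1 higher and 1 lower.

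Among 24 adaptors and effectors, 4 were called higher and 3 lower in miKO-Sham. Lcp2 (SLP-76, log2 0.90), Rac2 (0.61), a GTPase of phagocyte motility and oxidase, and Tyrobp (DAP12, 0.71), an ITAM adaptor like Fcer1g, were higher, while the kinase Pak1 (-2.82) and the adaptor Blnk (-0.84) were lower. Tyrobp overlapped between the groups. After ischemia 0 of the 24 were called higher in miKO mice by edgeR or DESeq2, with 3 at an unadjusted p below 0.05, and 5 were called lower, Pak1 (-1.48), Blnk (-1.07), Card9 (-1.01), Pik3r1 (-0.89) and Vav2 (-0.59). Within miKO mice ischemia was accompanied by 9 lower calls, such as Card9 (-1.18) and Prkcd (-0.86), and 1 higher call, Vav3 (2.13). In WT mice 4 were called higher with ischemia and 3 lower, with Vav3 (3.09) and Rac2 (1.03) among the former and Pak1 (-0.91) among the latter, both counts near the share of all genes. With miKO-Sham replicates 1 and 2 summed, 3 of the 24 were called higher and 4 lower in miKO-Sham against WT-Sham, and 0 higher and 6 lower with ischemia in miKO mice.

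The inhibitory side past Fcgr2b was read in 12 genes. Inpp5d, the phosphatase that its ITIM recruits, did not pass in either comparison of genotype (log2 0.07, edgeR adjusted p = 0.845, after sham surgery, and -0.39, 0.172, after ischemia) and fell with ischemia in miKO mice (-0.97, edgeR adjusted p = 0.000557). Of the 12, 2 were called higher in miKO-Sham, the adaptor Dok2 (3.20) and the phosphatase Ptpn6 (SHP-1, 0.87), and 1 lower, the adaptor Dok3 (-1.29), a count near the share of all genes. These counts were the same with miKO-Sham replicates 1 and 2 summed. After ischemia Dok2 (0.98) was again called higher in miKO mice and Dok3 (-1.33) lower. Dok2 also rose with ischemia in WT mice (2.53), where 2 of the 12 were called higher and 3 lower, and its interaction of -2.22 passed the test (edgeR adjusted p = 0.00918). In miKO mice ischemia came with 1 higher and 5 lower calls, Pag1 (-1.38) and Dok1 (-0.97) among the latter.

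Of 17 regulators known to act on these receptor genes, 3 were called higher in miKO-Sham and 0 lower: Cebpa (log2 1.03), a myeloid transcription factor, and Stat2 (0.70) and Irf9 (0.60), members of the interferon-activated complex. Without WT-Sham replicate 2 none of these 3 calls remained, the count being 0 of 17, and with miKO-Sham replicates 1 and 2 summed it was 2. Lower calls were 0 with DESeq2 too, and Irf1 and Stat3 had an unadjusted p below 0.05. Between the ischemic groups edgeR called 0 of the 17, DESeq2 called 1 higher and 0 lower, and at an unadjusted p below 0.05 there were 2 higher and 4 lower. Ischemia in WT mice came with 4 higher calls, among them Tfec (1.90), which is near the share of all genes, and 1 lower call, Ifngr1 (-1.16), a chain of the interferon-gamma receptor. In miKO mice it came with 3 higher and 9 lower calls, among the latter Spi1 (PU.1, -0.70), Irf8 (-0.93) and Cebpa (-1.63). Spi1, the factor that marks the myeloid lineage, did not pass in miKO-Sham (0.16, edgeR adjusted p = 0.422). Between the ischemic groups it was lower without overlap, at 256 to 310 CPM in miKO-tFCI against 361 to 385 CPM in WT-tFCI. It was among the 4 lower at an unadjusted edgeR p below 0.05 there and was not called.

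Other receptors for immunoglobulin were mostly too low to test. Of 8, 2 were tested: Fcgrt, the neonatal Fc receptor that recycles IgG inside cells, was called higher in miKO mice after both surgeries (log2 1.05 and 0.76, edgeR adjusted p = 0.000116 and 0.00405), and Trim21, a cytosolic antibody receptor, was called lower with ischemia in WT mice (-0.68). Among 3 tested of 6 Fc receptor-like genes, Fcrls, a microglial gene, was higher in miKO-Sham (0.79, edgeR adjusted p = 0.0042) and fell with ischemia in miKO mice (-0.58). Its interaction of -0.91 passed the test (edgeR adjusted p = 0.0469). Fcrl1, a receptor-like gene of B cells, was called lower in miKO-Sham (-0.83, edgeR adjusted p = 0.00797) and in miKO-tFCI (-0.76, 0.0278), as the only call of the list between the ischemic groups, and lower with ischemia in WT (-0.79) and in miKO mice (-0.71). Fcrlb was called higher with ischemia in miKO mice (2.80), from a mean of 0.260 CPM in miKO-Sham to 1.88 CPM in miKO-tFCI. These levels are near the floor, and the lowest miKO-Sham library had 0 CPM.

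The windows upstream of RefSeq starts of the genes were searched because members of 1 family moved in opposite directions. In RefSeq's promoter table (GRCm38.p6), 250 bases before each start were searched on both strands for GAGGAA, a core bound by PU.1, TTCNNNGAA, bound by STAT proteins, and the core of the interferon-stimulated response element (ISRE), a GAAA followed by any 2 bases and a second GAAA. These letters occur by themselves in 23.3%, 7.02% and 2.98% of 32841 promoters. The windows of Fcgr4 and Fcgr1 are shown as those with a match to a motif of interferon signalling, with the matches in capitals (TTCCTC is GAGGAA on the other strand), and bases inside an annotated exon are left out. The Fcgr4 window (chr1:171018676-171018919, plus strand) has the ISRE core 73 bases and GAGGAA 22 bases before the start. The Fcgr1 window (chr3:96293970-96294219, minus strand) has TTCNNNGAA 109 bases and GAGGAA 55 bases before the start.
Fcgr4: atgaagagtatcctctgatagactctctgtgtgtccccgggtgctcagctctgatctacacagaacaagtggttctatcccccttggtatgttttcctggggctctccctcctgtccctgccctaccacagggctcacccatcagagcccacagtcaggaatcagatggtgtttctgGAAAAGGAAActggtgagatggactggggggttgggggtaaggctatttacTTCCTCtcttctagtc
Fcgr1: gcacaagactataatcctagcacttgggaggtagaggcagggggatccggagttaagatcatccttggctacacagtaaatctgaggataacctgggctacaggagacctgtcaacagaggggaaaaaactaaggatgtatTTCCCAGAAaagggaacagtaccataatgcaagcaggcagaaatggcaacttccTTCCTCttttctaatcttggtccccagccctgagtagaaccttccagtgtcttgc
Fcgr3 had GAGGAA alone, 6 or 15 bases before its starts, and Fcgr2b and Fcer1g had 0 matches of the 3. The Fcgr2b window lies inside the annotated gene, with 187 of its 250 bases in exons, and the Fcgr3 windows also lie inside their gene. Bases before the outermost annotated starts of Fcgr2b and Fcgr3 were not searched. A match is a run of letters and not a measured site, and binding was not measured here.

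Fcgr2b, Fcgr3, Fcgr4 and Fcer1g lie together on chromosome 1 within 276 kb, on both strands, and Fcgr1 lies on chromosome 3. Of the 13 other annotated genes in that span 6 were tested. In miKO-Sham against WT-Sham edgeR called 0 of these 6 in either direction, against 15.4% of all genes. For 6 genes a count of 0 is near that share, and 3 of the 6 had an unadjusted p below 0.05. All 4 members of the span were called. With ischemia in WT mice Pcp4l1 (log2 2.18) and Sdhc (0.75) were called higher, against 20.9% of all genes. Apoa2 (-2.31) was called lower, against 11.7%. In miKO mice ischemia came with higher Pcp4l1 (1.68) and Cfap126 (1.27), against 21.9% of all genes, and 0 lower, against 13.9%. This look at neighbours was chosen after the members' values were seen.

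Over the 12 libraries, with the batch difference removed, the members did not follow 1 pattern. Pearson's r of log2 CPM was 0.85 between Fcgr1 and Fcgr3, 0.76 between Fcgr4 and Fcer1g and -0.09 between Fcgr3 and Fcgr4, while Fcgr2b had r from -0.52 to -0.11 with the other 4. These values describe 12 libraries in 4 groups, which share their group and their sequencing run, and carry no test. By the same measure Fcgr1 was most like C1qb (0.96), a chain of complement C1q, and Flcn (0.97), the folliculin gene, was among the 5 genes most like Fcgr3. Fcer1g was most like Abca1 (0.97), a cholesterol transporter, and Fcgr4 like Gm26716 (0.99) and Gpr65 (0.98), a proton-sensing receptor. Fcgr2b was most like B3galnt1 (0.97), a glycosyltransferase, followed by Arhgap11a (0.96) and Hdac9 (0.95).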

How the data were processed

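RNA of sorted mouse microglia was made into libraries with SMART-Seq v4 and sequenced as paired reads of 150 bases. The authors deposited 1 table of raw counts per library. The submitters' processing notes name FastQC 0.11.9, Trim Galore, HISAT2 2.2.1, SAMtools, HTSeq 1.99.2 and mm10, without order or role. By default HTSeq leaves out reads that match several places, so genes with near-identical stretches can be undercounted.

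From these counts, genes low in all groups were removed with edgeR 4.0.16 (filterByExpr, R 4.3.3), which left 16451 of 55401 genes. Libraries were scaled by TMM (factors 0.864 to 1.11), and edgeR's quasi-likelihood test was fitted to the 12 libraries together on group plus batch (common biological coefficient of variation 0.199). The p-values were adjusted over all genes by Benjamini-Hochberg. A gene was called at an adjusted p below 0.05 together with a log2 fold change beyond 0.58 in size, the interaction at an adjusted p below 0.05 alone. SE is the log2 fold change over the root of the F statistic, and 95% intervals are the normal interval around it. CPM used the TMM-scaled totals. Ratios had 0.5 added to each count and were tested by exact permutation within surgery and batch, or genotype and batch. The fit was tested on simulated data. Exon lengths and positions were taken from GENCODE M21 (GRCm38), where 55141 of the genes matched, sequences from GENCODE transcripts and, for promoters, RefSeq. SciPy 1.17.1 and Biopython 1.88 were used.

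The members and gene lists were chosen with earlier results of these data known. The text names all members, the called genes of fixed lists, and genes most like each member; a few genes of these lists are not reported here. Replicates were separate pools of mice, as far as the sources say, and p-values measure the spread between these libraries. The labels tie equal replicate numbers to no shared animal or litter. Alternatives were no low-count filter, at least 10 counts in every library, DESeq2 1.42.0, its size factors in edgeR, no batch term, batch 2 only, only the groups compared, a replicate block, the closest pair of libraries summed, and each library left out in turn.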

Additional observations from a re-analysis of the deposited data

Results flagged for a closer look

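The interaction of genotype and surgery for Fcgr4 was -2.13 on the log2 scale (edgeR adjusted p = 0.00283). It is listed because a test of the difference itself set the effect of ischemia in WT mice apart from that in miKO mice. WT libraries lay at 10.2 to 19.5 CPM after sham surgery and at 82.2 to 110 CPM after ischemia, whereas miKO libraries lay at 58.02 to 78.6 CPM and 77.7 to 134 CPM.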

How the results depend on the processing

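The 4 calls of miKO-Sham against WT-Sham were 3 to 5 with single libraries left out, those of WT-tFCI against WT-Sham 1 to 2, of miKO-tFCI against WT-tFCI 0 to 1, of miKO-tFCI against miKO-Sham 1 to 3 and of the interaction 1 to 3. Without the batch term 1 member was called in WT-tFCI against WT-Sham and 0 in miKO-tFCI against WT-tFCI, where batch 2 only also gave 0. For the interaction DESeq2 called 3 members, no low-count filter 3 and batch 2 only 2. In batch 2 only the ratios to Fcgr2b were 1.12 (genotype) and -0.73 (surgery) for Fcgr1, 1.13 and -1.10 for Fcgr3 and 2.29 (genotype) for Fcgr4, with an exact permutation p of 0.0556, the smallest that batch allows. The surgery ratio of Fcgr1 was -0.75 to -0.57 with single libraries left out and had an exact permutation p of 0.0556 without WT-Sham replicate 1. Fcgr1 changed sign, between -0.070 and 0.23 in WT-tFCI against WT-Sham and between -0.18 and 0.011 in miKO-tFCI against WT-tFCI, with single libraries left out, and was called in neither. The causes were not tested. With a replicate block 2 members were called in WT-tFCI against WT-Sham and 3 in miKO-tFCI against miKO-Sham, and the block changed no member's call. The block was no part of the design, since deviations of libraries with the same number correlated at 0.098 to 0.67 for replicate 1, which shares a batch of its own, at -0.06 to 0.33 for replicate 2 and at 0.11 to 0.32 for replicate 3, and not every pair was above 0.1. Over all genes the calls in WT-tFCI against WT-Sham, miKO-tFCI against WT-tFCI, miKO-Sham against WT-Sham, miKO-tFCI against miKO-Sham and the interaction were 5365, 1446, 2530, 5887 and 629, with ranges over the settings of 3701 to 5850, 616 to 2535, 1927 to 3051, 3744 to 6554 and 281 to 1272. Of the partner receptors of the chain, only 2 had at least 10 counts in every library, and both were called there in each comparison of genotype. Calls among kinases in WT-tFCI against WT-Sham were 1 to 4 over the settings, and among regulators in miKO-Sham against WT-Sham 0 to 4. Low counts left 4 of the 9 partner receptors untested, and 1 symbol was not matched.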
